A study of Mus musculus with 8 samples.

Results

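Fc gamma receptors are the surface proteins by which macrophages bind the constant part of IgG antibodies. The genes described here are the 4 mouse Fc gamma receptor genes Fcgr1, Fcgr2b, Fcgr3 and Fcgr4 and Fcer1g, which encodes the common gamma chain. They were chosen by symbol, 5 of the 27998 gene identifiers counted, with earlier results of these data known. RNA of YFP-sorted microglia, the macrophages that reside in brain and spinal cord, was counted in single cells from the lumbar cord of young adult C57BL/6 mice, in 8 libraries with 14626 kept cells. The 4 libraries labelled control were from Cx3cr1-yfp-creER/+ animals and the 4 labelled A20 cKO from Cx3cr1-yfp-creER/+; Tnfaip3 fl/fl animals, where A20 is the protein that Tnfaip3 encodes. All 8 groups thus carried 1 Cx3cr1 allele replaced by YFP and a tamoxifen-inducible Cre, which acts in any cell that uses the Cx3cr1 promoter. Each genotype had a naive library and a library for day 1, day 2 and day 3 after bilateral transection of the sciatic nerve, all made from the cords of more than 1 animal. No group had a replicate, so nothing was tested between groups, and each range in brackets is a 95% interval of counting error only.

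In mice the receptors encoded by Fcgr1, Fcgr3 and Fcgr4 activate the cell. They have no signalling motif of their own and pair with the common gamma chain, whose ITAM is phosphorylated by Src family kinases and then binds the kinase Syk, which leads to phagocytosis and cytokine release. Fcgr1 encodes the high-affinity receptor, Fcgr3 a low-affinity receptor and Fcgr4 a receptor of intermediate affinity for some IgG subclasses. Fcgr2b encodes the inhibitory receptor, whose ITIM recruits the lipid phosphatase SHIP1, the product of Inpp5d, and dampens the activating receptors. In macrophages Fcgr1 and Fcgr4 are known interferon-responsive genes, and microglia are known to take up antibody-coated material through these receptors.

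Fcer1g, Fcgr2b, Fcgr3 and Fcgr4 lie on chromosome 1 and Fcgr1 on chromosome 3. In GENCODE M21 on GRCm38, Fcgr1 (ENSMUSG00000015947) spans chr3:96282909-96293969 on the minus strand, Fcgr2b (ENSMUSG00000026656) chr1:170958617-170976547 on the minus strand and Fcgr3 (ENSMUSG00000059498) chr1:171051174-171064935 on the minus strand. Fcgr4 (ENSMUSG00000059089) spans chr1:171018920-171029761 on the plus strand, between Fcgr2b and Fcgr3, and Fcer1g (ENSMUSG00000058715) chr1:171229572-171234365 on the minus strand. Promoters of the 3 activating receptors are shown because their levels moved apart in interferon-class cells, as described further on. Each run holds the 250 bases before a RefSeq start site on GRCm38.p6, read 5′ to 3′ on the strand of the gene, at chr3:96293970-96294219 for Fcgr1, chr1:171018676-171018925 for Fcgr4 and chr1:171059404-171059653 for the first of the start sites of Fcgr3. Capitals mark matches to the PU.1 core GAGGAA, the GAS element TTCNNNGAA or the ISRE core of GAAA, any 2 bases and GAAA, searched on both strands.
Fcgr1: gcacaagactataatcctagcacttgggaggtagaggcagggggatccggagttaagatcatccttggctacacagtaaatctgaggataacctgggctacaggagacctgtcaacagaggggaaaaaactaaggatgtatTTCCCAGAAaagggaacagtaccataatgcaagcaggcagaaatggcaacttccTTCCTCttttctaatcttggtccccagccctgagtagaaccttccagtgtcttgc
Fcgr4: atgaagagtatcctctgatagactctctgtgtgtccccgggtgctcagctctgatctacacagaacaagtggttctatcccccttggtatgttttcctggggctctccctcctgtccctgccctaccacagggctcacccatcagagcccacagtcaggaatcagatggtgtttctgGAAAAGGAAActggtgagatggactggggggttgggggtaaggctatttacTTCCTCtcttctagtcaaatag
Fcgr3: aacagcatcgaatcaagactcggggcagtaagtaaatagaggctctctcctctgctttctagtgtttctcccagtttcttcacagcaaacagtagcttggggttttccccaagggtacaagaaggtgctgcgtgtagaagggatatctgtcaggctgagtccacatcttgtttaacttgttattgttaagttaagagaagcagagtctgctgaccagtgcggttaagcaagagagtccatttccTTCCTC
Fcgr1 held a GAS match, TTCCCAGAA, 109 bases before the start site, and a reverse PU.1 match, TTCCTC, 55 bases before it. Fcgr4 held an ISRE match, GAAAAGGAAA, 73 bases before the start site and a reverse PU.1 match 22 bases before it. Fcgr3 held a reverse PU.1 match alone, 6 bases before the start site. None of these motifs was matched in the windows of Fcgr2b and Fcer1g. Over the 32851 promoter windows of the same source, each of which also takes in 50 bases after the start, 28.3% held the PU.1 core, 8.30% the GAS element and 3.44% the ISRE core. These matches are a description of the letters in the windows.

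The libraries fell into 2 sets. The first set, here named the linked libraries, held control day 3 and all 4 A20 cKO libraries. Its members shared 256 cell barcodes where 45.6 would be expected at the median rate of all pairs, and in the 15 pairs across the sets 98 were shared where 129.8 would be. The split was less clear for control naive, on small counts. It shared 5 barcodes with A20 cKO day 1 (1.33 expected), 2 with day 2 (1.00) and 3 with day 3 (0.827). With A20 cKO naive it shared 4 (4.26 expected) and with control day 3 it shared 3 (3.10). Summed neutrophil markers lay between 32.7 and 55.8 CPM in the linked libraries and between 0 and 0.142 CPM in the other 3, oligodendrocyte markers between 218 and 286 against 137 to 149 CPM, and microglia markers between 11339 and 18119 against 19164 to 23570 CPM. CPM is the number of UMIs, or counted molecules, of a gene scaled to a common library total. Monocyte markers summed to between 27.9 and 86.0 CPM in the linked libraries against 2.35 to 3.70 CPM, most of it from Plac8, while Ccr2 had 0.330 to 2.36 against 0.632 to 1.85 CPM. Endothelial markers overlapped between the sets, and B cell markers were lower in the linked libraries, at 21.2 to 37.2 against 38.2 to 51.1 CPM. The neutrophil genes S100a8 and S100a9 were at 0 in the other 3 libraries, while all 7 microglia markers were detected in every library. The part of these differences in the results was not tested. Comparisons of control day 3 with control naive or day 2, and of A20 cKO with control in naive animals, on day 1 and on day 2, lie across the sets, and the others within a set. Tnfaip3 had between 6.83 and 25.3 CPM in the control libraries and between 42.3 and 67.7 CPM in the A20 cKO libraries. The RNA was counted at its 3′ end and the place of the floxed exons is not given in the sources used here, so these levels do not check the labels.

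Kept cells per library numbered between 558 and 3585 and held a median of 2780 to 4274 UMIs. A log2 ratio compares the CPM of 2 libraries, with 0.5 UMIs added to each sum. A gene was past the call rule where this ratio was at least 1 in size and its interval excluded 0, provided that both sums added up to 100 UMIs or more. Over all such genes the median log2 ratio lay between −0.13 and 0.20 in the 13 comparisons, so ratios relative to the median gene are given where this matters. Of the 91-base windows in the last 500 bases of the members' transcripts, 0 were shared exactly with another gene. Windows further upstream and inexact matches were not searched. Gm38204 overlaps Fcgr2b on the opposite strand.

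Fcgr4 was the member whose level differed most between libraries, and the only one past the call rule in any of the 13 comparisons. In the control libraries Fcgr4 had 17.3 CPM in naive animals (11.5 to 25, from 28 UMIs), 50.6 CPM on day 1 (47.0 to 54.5), 48.4 CPM on day 2 (45.0 to 51.9) and 69.2 CPM on day 3 (63.3 to 75.5). The A20 cKO libraries had 38.1 CPM in naive animals (34.2 to 42.4), 59.8 CPM on day 1 (51.4 to 69.1), 71.2 CPM on day 2 (62.0 to 81.4) and 63.4 CPM on day 3 (53.9 to 73.9). Control naive was below all other libraries and A20 cKO naive next, each with an interval apart from its neighbour in the order, and the 6 libraries after injury followed. Among these 6, no neighbours in the order were told apart by their intervals. Libraries further apart in the order could be: control day 3 was above control day 2 by a log2 of 0.52 (0.35 to 0.68), across the sets.

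On day 1, Fcgr4 was 2.88-fold higher than in control naive (log2 1.53, 1.01 to 2.15), and it was 1 of 5 members higher past the rule, against 3.74% of the genes compared. On day 2 it was 2.75-fold higher (log2 1.46, 0.94 to 2.08), again 1 of 5 members against 5.81% of genes. Both comparisons lie within the set of 3. On day 3, across the sets, it was 3.94-fold higher (log2 1.98, 1.45 to 2.61), 1 of 5 members against 8.76% of genes. Relative to the median gene these log2 ratios were 1.65, 1.58 and 1.91. All of them rest on the 28 UMIs of control naive in 568 cells. The share of cells with UMIs of at least 3 interferon genes was 4.38% among naive control cells, 2.54% on day 1 and 4.28% on day 2.

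Among the A20 cKO days no ratio of Fcgr4 to the naive library was past the rule. That naive library stood 2.17-fold above control naive (log2 1.12, 0.58 to 1.75, across the sets), where 1 of 5 members and 7.43% of genes were higher past the rule. Without the cells that held at least 2 genes of the list of 1 other cell type, this log2 ratio was 0.83 (0.27 to 1.5), below the rule. That setting left 84.0% of control naive and 82.3% of A20 cKO naive cells. It does not remove foreign cells alone, since Bsg, on the endothelial list, was found in 85.6% and 69.7% of kept cells. Within the linked libraries, Fcgr4 differed from A20 cKO naive by a log2 of 0.65 on day 1 (0.38 to 0.91), 0.90 on day 2 (0.65 to 1.15) and 0.74 on day 3 (0.45 to 1.01). On day 3 the genotypes differed by −0.12 (−0.39 to 0.13), a comparison within the linked libraries. On day 1, across the sets, A20 cKO differed from control by 0.24 (just below 0 to 0.48), which turned to −0.06 with TMM scaling and −0.04 with median-of-ratios scaling. On day 2, also across the sets, the difference was 0.56 (0.33 to 0.78).

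By UMIs, which count each RNA molecule once whatever its length, Fcgr3 was the most abundant receptor, and the only member whose 4 A20 cKO levels all lay below its 4 control levels. In the control libraries its level was 1516 CPM in naive animals, 1418 CPM on day 1, 1547 CPM on day 2 and 1342 CPM on day 3. The A20 cKO libraries had 1231 CPM in naive animals, 1055 CPM on day 1, 809 CPM on day 2 and 719.7 CPM on day 3. In the order of the 8 levels only control naive and control day 2 were not told apart. No member was lower past the call rule in any of the 13 comparisons.

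Against A20 cKO naive, Fcgr3 differed by a log2 of −0.22 on day 1 (−0.28 to −0.17), −0.60 on day 2 (−0.67 to −0.54) and −0.77 on day 3 (−0.85 to −0.70), all within the linked libraries. Relative to the median gene these were −0.26, −0.53 and −0.68. The largest within-set difference between genotypes was that on day 3, −0.90 (−0.97 to −0.83), or 0.54 of the control level. On day 2, across the sets, it was −0.93 (−1.0 to −0.88), just short of the rule. In naive animals and on day 1, also across the sets, A20 cKO differed from control by −0.30 (−0.36 to −0.24) and −0.43 (−0.48 to −0.37). Within the control genotype the ratios were small: −0.10 on day 1 against naive (−0.16 to −0.04), which turned to 0.15 with TMM scaling and 0.09 with median-of-ratios scaling, 0.03 on day 2 (−0.03 to 0.09) and, across the sets, −0.18 on day 3 (−0.24 to −0.11).

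Fcgr1, the high-affinity receptor, varied least of the 4 receptors, with a 1.25-fold range over the libraries. Its level was 488 CPM in control naive, 577 CPM on day 1, 568 CPM on day 2 and 574 CPM on day 3. The A20 cKO libraries had 463 CPM in naive animals, 527 CPM on day 1, 519 CPM on day 2 and 525 CPM on day 3. In both genotypes the naive library was lowest and the 3 libraries after injury lay close together. The control days differed from control naive by a log2 of 0.24 (0.14 to 0.35), 0.22 (0.11 to 0.33) and, across the sets, 0.23 (0.12 to 0.35). The A20 cKO days differed from their naive library by 0.19 (0.10 to 0.27), 0.17 (0.08 to 0.25) and 0.18 (0.09 to 0.27). A20 cKO was lower than control on day 3, within the linked libraries, by a log2 of −0.13 (−0.22 to −0.04). On days 1 and 2, across the sets, the differences were also −0.13 each, with intervals below 0, and in naive animals −0.08 (−0.19 to 0.03). Relative to the median gene, these genotype differences were −0.013 on day 3, −0.33 on day 1, −0.19 on day 2 and −0.12 in naive animals. In the order of levels, A20 cKO naive and control naive were not told apart, nor control naive and A20 cKO day 2, nor the 3 days within either genotype.

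Fcgr2b, the inhibitory receptor, was higher after injury in the control libraries and nearly level in A20 cKO. Its level was 199 CPM in control naive, 294 CPM on day 1, 275 CPM on day 2 and 312 CPM on day 3. The A20 cKO libraries had 223 CPM in naive animals, 248 CPM on day 1, 217 CPM on day 2 and 227 CPM on day 3. The 3 control libraries after injury lay above all 5 others. The log2 ratios to control naive were 0.56 (0.40 to 0.73), 0.46 (0.30 to 0.63) and, across the sets, 0.64 (0.48 to 0.82), all short of the rule. In A20 cKO they were 0.15 (0.03 to 0.28), −0.04 (−0.17 to 0.09) and 0.03 (−0.11 to 0.16), and the day 2 ratio turned to 0.04 with median-of-ratios scaling. Control naive and the A20 cKO libraries followed each other in the order of levels with no neighbours told apart. On day 3, within the linked libraries, A20 cKO was lower than control by a log2 of −0.45 (−0.59 to −0.32). On days 1 and 2, across the sets, the differences were −0.25 (−0.36 to −0.13) and −0.34 (−0.46 to −0.22).

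Fcer1g, the signalling partner of the activating receptors, was the most abundant of the 5 by UMIs. Its level was 3005 CPM in control naive, 3041 CPM on day 1, 3729 CPM on day 2 and 2614 CPM on day 3. The A20 cKO libraries had 2583 CPM in naive animals, 2727 CPM on day 1, 3104 CPM on day 2 and 2835 CPM on day 3. Day 2 was the highest library of either genotype. The log2 ratio to the naive library was 0.31 on control day 2 (0.27 to 0.35) and 0.26 on A20 cKO day 2 (0.23 to 0.30), both within a set. Control day 3 was lower than control day 2 by −0.51 (−0.54 to −0.49), across the sets. The genotype difference had no common sign: inside the linked set A20 cKO differed from control on day 3 by 0.12 (0.08 to 0.16), and across the sets by −0.22 in naive animals (−0.26 to −0.17), −0.16 on day 1 (−0.19 to −0.12) and −0.26 on day 2 (−0.30 to −0.23). In the order of levels A20 cKO naive and control day 3 were not told apart, nor control naive and control day 1, nor control day 1 and A20 cKO day 2.

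**Figure D1:**
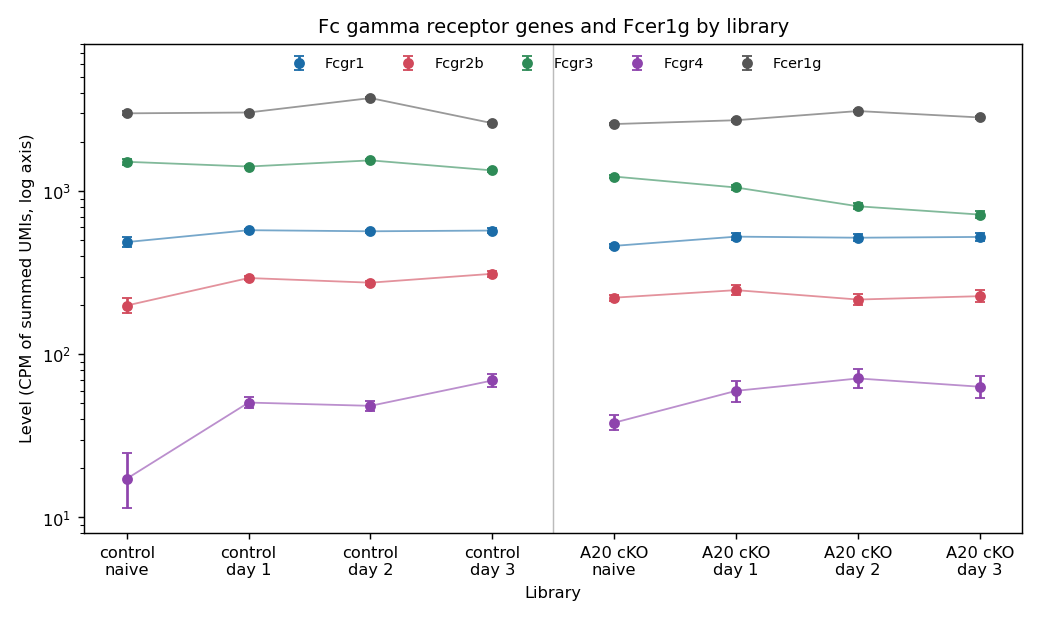
Level of each gene in the 8 libraries, as CPM of summed UMIs on a log axis, with exact 95% Poisson intervals as bars and lines joining libraries of 1 genotype. Fcgr4 was lowest in control naive at 17.3 CPM, and Fcgr3 was lowest on A20 cKO day 3 at 719.7 CPM.

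Apart from Fcgr4 in the 4 comparisons named above, 0 of 5 members were past the rule in either direction, and the share of genes past it was as follows. Against control naive, 7.25% of genes were lower on day 1, 6.28% on day 2 and 2.32% on day 3. Control day 2 against day 1 had 3.8% higher and 1.83% lower, and control day 3 against day 2 had 13.1% higher and 2.69% lower. Against A20 cKO naive, 1.56% were higher and 1.39% lower on day 1, 2.86% and 2.65% on day 2, and 1.92% and 2% on day 3. A20 cKO naive had 0.964% higher and 1.49% lower against control day 3, and 2.22% lower against control naive. A20 cKO against control had 15.5% higher and 3.25% lower on day 1, 10.7% and 4.66% on day 2, and 1.86% and 2.4% on day 3. The plot of log2 ratios shows the pattern across comparisons: Fcgr4 stood apart on the side of the later libraries, Fcgr3 on the opposite side in A20 cKO, and Fcgr1 lay between −0.31 and 0.24 in all 13.

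**Figure D2:**
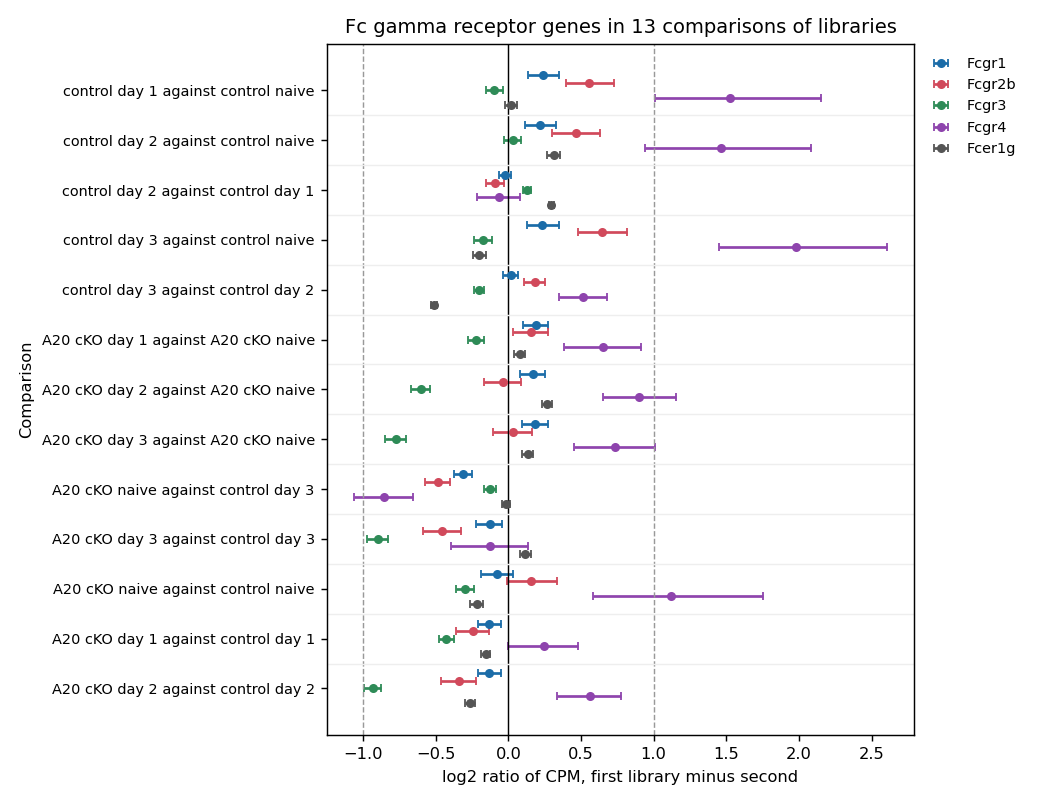
Log2 ratio of CPM of each gene in the 13 comparisons, first library minus second, with exact conditional 95% intervals as bars and dashed lines at the ratio of the call rule. Fcgr4 reached 1.98 on control day 3 against naive and Fcgr3 −0.93 on A20 cKO day 2 against control day 2.

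Ratios between receptors within a library do not depend on its total. Of the UMIs of the 4 receptors, Fcgr3 took 68.3% in control naive and then 60.6%, 63.4% and 58.4% on the control days. Among the A20 cKO libraries it took 63.0% in naive animals and then 55.8%, 50.1% and 46.9%. Fcgr1 took between 22.0% and 25% in the control libraries and 23.7%, 27.9%, 32.1% and 34.2% in A20 cKO. Fcgr2b took 8.97% in control naive and between 11.3% and 14.8% in all others. Fcgr4 took 0.778% in control naive (0.518% to 1.12%), between 1.95% and 3.16% in the next 5 libraries and 4.4% and 4.13% on A20 cKO days 2 and 3. The receptor pool of the A20 cKO libraries on days 2 and 3 thus held a smaller share of Fcgr3 and larger shares of Fcgr1 and Fcgr4 than that of any other library. The 4 shares are parts of 1 whole, so a smaller share of Fcgr3 makes the others larger. The level of Fcgr1 in these libraries, 519 and 525 CPM, was below the 568 to 577 CPM of the control libraries after injury.

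Activating receptors together outnumbered the inhibitory one by 10.1 UMIs to 1 in control naive (9.04 to 11.4), and by 6.96, 7.86 and 6.37 on days 1, 2 and 3. In A20 cKO the ratio was 7.78 in naive animals (7.42 to 8.15) and 6.63, 6.45 and 5.75 on days 1, 2 and 3. It was highest in the naive library of each genotype, and the interval of A20 cKO naive overlapped that of control day 2. The number of Fcer1g UMIs per receptor UMI was 1.35 in control naive and 1.30, 1.53 and 1.14 on the later days, and 1.32, 1.44, 1.92 (1.86 to 1.99) and 1.85 (1.78 to 1.92) in A20 cKO. Days 2 and 3 of A20 cKO were above all others, the libraries in which Fcgr3 was lowest.

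**Figure D3:**
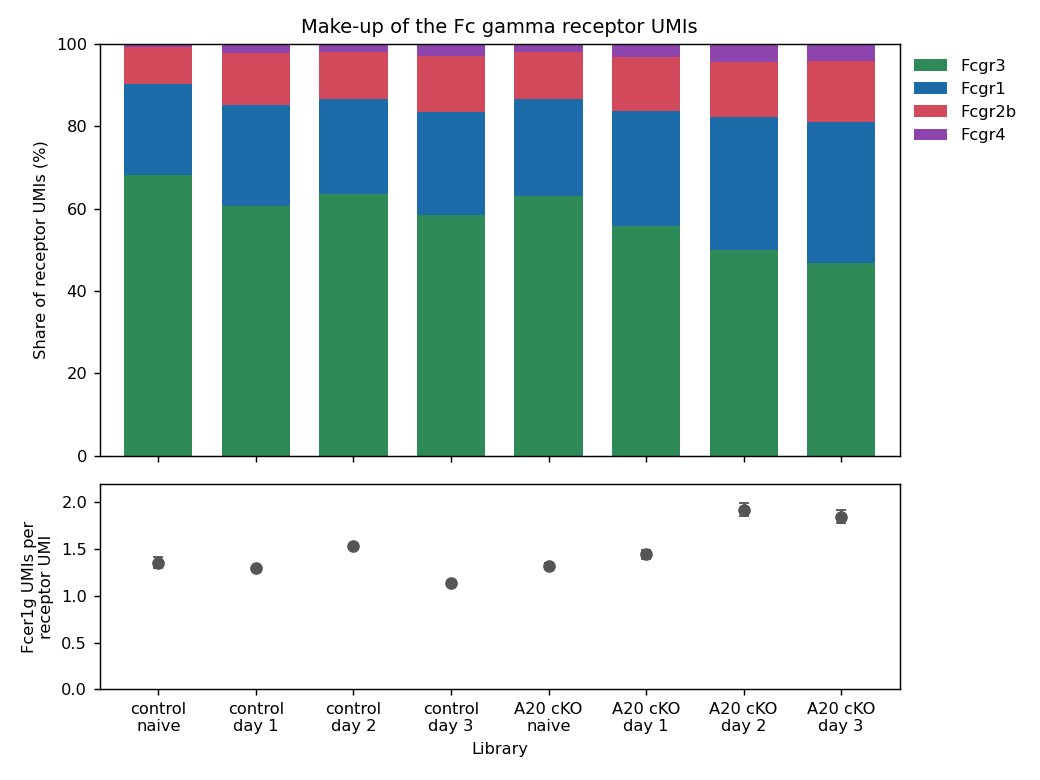
Upper panel, the share of each receptor gene in the summed UMIs of the 4 receptors, in percent, by library, and lower panel, Fcer1g UMIs per receptor UMI with exact conditional 95% intervals as bars. Fcgr3 took 68.3% in control naive and 46.9% on A20 cKO day 3, where Fcer1g reached 1.85 per receptor UMI.

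Shares of cells with a UMI were compared at equal depth. With every cell thinned to 2000 UMIs, Fcgr3 was found in 95.2% of control naive cells (93.0% to 96.9%) and in 92.9%, 95.5% and 91.5% of control cells after 1, 2 and 3 days, against 87.4%, 83.4%, 78.3% and 69.5% (65.4% to 73.4%) in A20 cKO. The median cell held 3 Fcgr3 UMIs in all 4 control libraries, 2 in A20 cKO naive and day 1, and 1 on days 2 and 3. Fcgr4 was found in 3.39% of cells in control naive (1.98% to 5.37%), 9.02%, 9.14% and 10.4% on days 1, 2 and 3, and in 6.58%, 10.5%, 12.5% and 10.0% in A20 cKO. Cells with at least 2 Fcgr4 UMIs made up at most 1.65% of any library. Fcgr1 was found in 56.7% to 67.7% of cells and Fcgr2b in 33.3% to 45.2%, and Fcer1g in at least 99.1%. Without thinning the ranges were 67.7% to 87.6% for Fcgr1, 41.4% to 67.1% for Fcgr2b, 87.6% to 99.1% for Fcgr3 and 4.58% to 23.7% for Fcgr4.

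**Figure D4:**
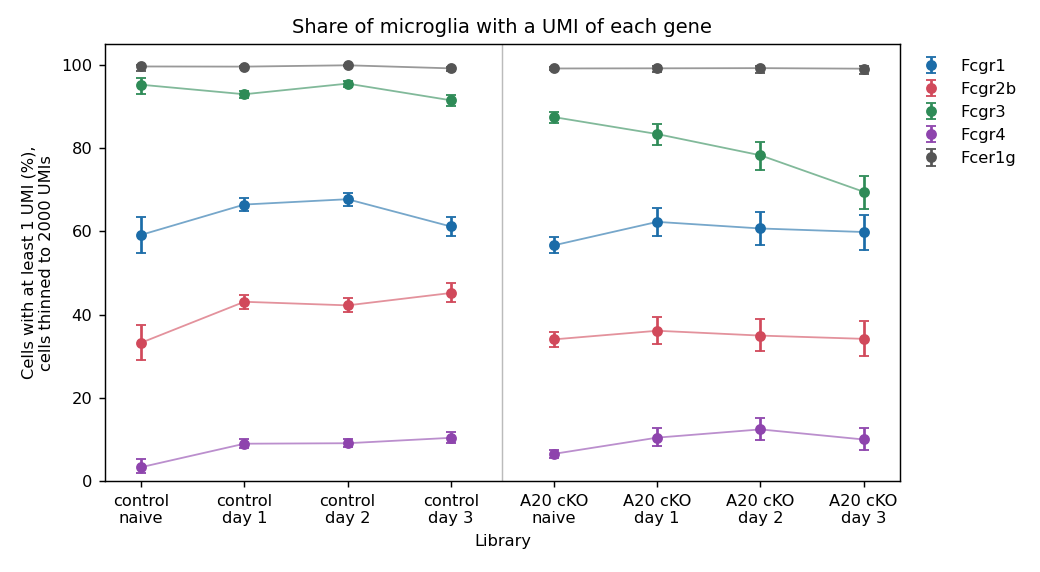
Share of cells with at least 1 UMI of each gene, in percent, after thinning each cell to 2000 UMIs, with exact 95% Clopper-Pearson intervals as bars. Fcgr3 was found in 69.5% of cells on A20 cKO day 3 and Fcgr4 lay between 3.39% and 12.5%.

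Free RNA can give UMIs in cells that do not use a gene. Only 23 kept cells, all in linked libraries, had more genes of oligodendrocytes, astrocytes, endothelial cells or neurons than of microglia. Their median was 1297 UMIs against 3532 for all kept cells. Of them 8.70% had a UMI of Fcgr1, 13% of Fcgr3 and 17.4% of Fcer1g, against 79.9%, 96.1% and 99.3% of all kept cells. Fcgr2b and Fcgr4 were found in 0 of 23, which allows a share of up to 13%. This limit is above the thinned Fcgr4 share of all 8 libraries, and no such cell came from the other 3 libraries.

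At least 1 receptor was found in between 92.6% and 99.3% of thinned cells, and at least 2 receptors in between 60.8% and 79.6%. Detection of the receptors in the same cell showed no common direction. Cells with a UMI of Fcgr4 more often had Fcgr1 in 5 of 8 libraries and Fcgr3 in 2 of 8, and cells with Fcgr2b more often had Fcgr3 in 6 of 8. Cells of 1 library share depth and free RNA, and these counts are descriptions.

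Within libraries, Fcgr1 and Fcgr4 were higher in cells that held interferon-response transcripts. An interferon class was set as thinned cells with UMIs of at least 3 of 12 interferon genes, such as Ifit1, Isg15 and Irf7, and compared with cells that had 0 of them. Between 7.25% and 57.3% of a library held 1 or 2 of these genes and entered neither group. The class made up 2.54% to 4.38% of control naive, day 1 and day 2, 44.0% to 51.0% of control day 3, A20 cKO naive and day 1, and 91.2% and 92.8% of A20 cKO days 2 and 3. In these last libraries too few other cells remained, so 6 libraries were compared. The class is a range of a count per cell and no cell type, and the part of free RNA in it was not tested.

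Fcgr1 was higher in the interferon class in 6 of 6 libraries, where 4.21% of genes were. The log2 ratios were 1.06 among control naive cells (0.51 to 1.55), 0.49 at day 1 (0.22 to 0.75), 0.22 at day 2 (just below 0 to 0.43) and 1.23 on day 3 (0.98 to 1.5), and 0.45 in A20 cKO naive (0.27 to 0.63) and 0.55 on day 1 (0.23 to 0.89). On control day 3 this meant 704 CPM in the class against 299 CPM in the other cells. Fcgr4 was higher in 6 of 6 as well, with log2 ratios of 1.17 on control day 1 (0.31 to 1.85), 0.34 on day 2 (−0.53 to 1.04) and 1.52 on day 3 (0.80 to 2.43), and 1.46 in A20 cKO naive (0.75 to 2.35) and 1.14 on day 1 (0.10 to 2.60). In control naive the class held 1 Fcgr4 UMI (22.7 CPM) against 9 in other cells (20 CPM). With 0.5 UMIs added to each sum, the log2 ratio was 0.69 with an interval of −5.27 to 3.04, so its size rests mostly on the added UMIs. Intervals excluded 0 in 5 of 6 libraries for Fcgr1 and 4 of 6 for Fcgr4.

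Fcgr3 went the other way in most libraries. It was higher in the interferon class in 1 of 6, control naive, with a log2 of 0.02 (−0.39 to 0.38), and its interval lay below 0 in 4 of 6. It was thus not among the 3.67% of genes lower in all 6. The ratios were −0.17 on control day 2 (−0.32 to −0.03), −0.21 on day 3 (−0.33 to −0.08), −0.56 in A20 cKO naive (−0.66 to −0.46) and −0.45 on A20 cKO day 1 (−0.65 to −0.25). Fcgr2b was higher in 5 of 6, with 1 interval above 0, and Fcer1g in 5 of 6, with 2.

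In A20 cKO naive, day 1, day 2 and day 3 the class made up 44.0%, 51.0%, 91.2% and 92.8% of cells. Fcgr4 had 38.1, 59.8, 71.2 and 63.4 CPM there, and Fcgr3 1231, 1055, 809 and 719.7 CPM. The comparisons were repeated within the class, an alternative chosen after seeing the data, and its part in them was not tested. Within the class Fcgr4 had 57.9 CPM in A20 cKO naive and 73.3 CPM on A20 cKO day 1. On A20 cKO day 2 and day 3 it differed from A20 cKO naive by 0.31 (−0.10 to 0.72) and 0.01 (−0.46 to 0.46), against 0.90 and 0.74 in all cells. Fcgr3 differed from A20 cKO naive by −0.27 on day 2 (−0.38 to −0.16) and −0.53 on day 3 (−0.65 to −0.41). Between genotypes on day 3, Fcgr3 differed by −0.85 within the class (−0.97 to −0.73), close to the value in all cells, and Fcgr4 by −0.69 (−1.16 to −0.26). Within the class Fcgr1 on the control days differed from control naive by −0.20 (−0.71 to 0.37), −0.40 (−0.89 to 0.15) and −0.35 (−0.79 to 0.17), the opposite sign from all cells with intervals that include 0. Fcgr2b on control days 2 and 3 turned to −0.33 (−1.05 to 0.55) and −0.25 (−0.90 to 0.58) in the same way, and Fcgr1 on A20 cKO days 2 and 3 to −0.08 (−0.22 to 0.06) and −0.04 (−0.19 to 0.10).

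Fcgr3 made up a smaller share of the UMIs in cells with transcripts of G2/M genes. A G2/M class was set as thinned cells in which 3 or more of 18 core G2/M genes were found, such as Mki67, Top2a and Cdk1, and was compared with cells that had 0 of them in the 6 libraries with at least 20 such cells. The class made up 14.8% of control day 2, 8.47% of control day 3 and 2.64%, 3.01%, 11.8% and 7.06% of A20 cKO naive, day 1, day 2 and day 3, and the share of cells between the groups lay between 9.04% and 46.9% in these libraries. Fcgr3 was lower in 6 of 6, where 5.93% of genes were, and all 6 intervals lay below 0. The log2 ratios were −0.37 on control day 2 (−0.46 to −0.28) and −0.83 on day 3 (−1.02 to −0.65). In A20 cKO they were −1.38 in naive animals (−1.75 to −1.04), −1.37 on day 1 (−2.08 to −0.80), −0.95 on day 2 (−1.32 to −0.62) and −1.08 on day 3 (−1.72 to −0.55). On A20 cKO day 3 this meant 355 CPM of Fcgr3 in the class against 766 CPM in the other cells.

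Fcer1g was also lower in the G2/M class in 6 of 6 libraries, by less, with a median log2 of −0.27 and 5 intervals below 0. Fcgr1 was lower in 6 of 6 by at most 0.20 with no interval that excluded 0. Fcgr2b was higher in 4 of 6, where 0 intervals lay above 0 and 1 below it, and Fcgr4 in 1 of 6, likewise with 0 intervals above and 1 below. In cells without any of the 18 genes, also an alternative chosen after seeing the data, Fcgr3 on A20 cKO day 3 differed from naive by −0.77 (−0.89 to −0.65) and from control day 3 by −0.92 (−1.05 to −0.80), as large as in all cells. On A20 cKO day 2 it differed from naive by −0.43 (−0.53 to −0.32), against −0.60 in all cells.

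**Figure D5:**
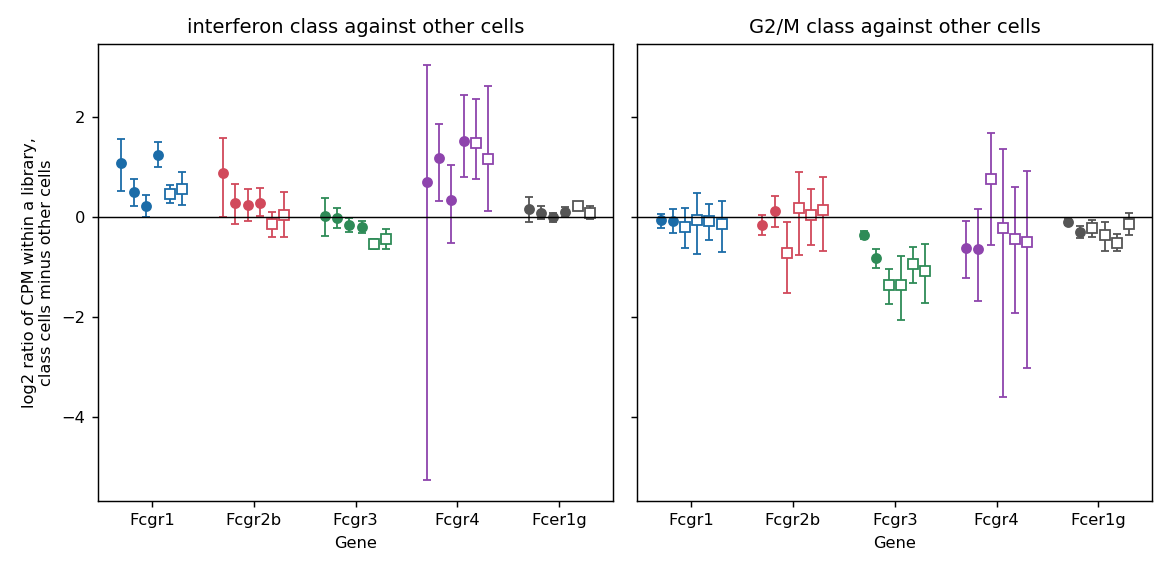
Log2 ratio of CPM between class cells and other cells within each library, for the interferon class (left) and the G2/M class (right), with exact conditional 95% intervals as bars, filled circles for control and open squares for A20 cKO libraries. Fcgr1 and Fcgr4 lay above 0 in all 6 libraries on the left, and Fcgr3 below 0 in all 6 on the right.

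Genes that carry the signal of these receptors were compared by the same rule. Of the 22 genes of the ITAM pathway, 21 had enough UMIs. On control day 1, 3 of 21 were lower than in naive animals, Pik3cd (log2 −1.20), Malt1 (−1.15) and Gab2 (−1.03), and on day 2 these genes and Card9, with −1.19, −1.88, −1.05 and −1.09. Pik3cd encodes a catalytic subunit of phosphoinositide 3-kinase, Gab2 a scaffold that recruits it, and Malt1 and Card9 act in the step to NF-kB. On these days 7.25% and 6.28% of all genes were lower past the rule, and the medians of the pathway were −0.29 and −0.45 against −0.13 and −0.12 for all genes. These calls depend on the scaling: with TMM scaling 0 of the 3 on day 1 and 1 of the 4 on day 2, Malt1 (−1.67), stayed past the rule, and with median-of-ratios scaling 1 on day 1, Pik3cd (−1.01), and 2 on day 2, Pik3cd (−1.06) and Malt1 (−1.75). All kept their sign. In A20 cKO, 0 of 21 were past the rule on any day against naive, and with median-of-ratios scaling 1 was, Fgr (1.02) on day 3.

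Across the sets, the ITAM pathway genes past the rule were higher in the linked library each time. On control day 3 against day 2, Malt1 (1.68), Gab2 (1.46) and Pik3r1 (1.37), a regulatory subunit of phosphoinositide 3-kinase, were higher, 3 of 21 against 13.1% of genes. On day 2, A20 cKO was higher than control in Malt1 (1.55), Pik3r1 (1.26), Src (1.13) and Gab2 (1.05), 4 of 21 against 10.7%, and on day 1 in Gab2 (1.30), 1 of 21 against 15.5%. With TMM scaling 2 of the 4 on day 2, Pik3r1 (1.10) and Malt1 (1.39), stayed past the rule, and Gab2 on day 1 fell just below it. Pik3r1 was also higher on control day 3 (1.25) and in A20 cKO naive (1.27) than in control naive. Within the linked libraries, A20 cKO differed from control on day 3 in the Src family kinase genes Fgr (1.08) and Src (1.04), 2 of 21 against 1.86% of genes. Syk, Lyn, Btk and Tyrobp passed the rule in 0 of 13 comparisons.

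Of the 12 inhibitory signalling genes, between 10 and 12 had enough UMIs, and Inpp5d passed the rule in 0 of 13 comparisons. Inppl1, which encodes the related phosphatase SHIP2, was lower on control day 1 than in naive animals (−1.09), 1 of 10 against 7.25% of genes. The ubiquitin ligase genes Cblb and Cbl were higher across the sets. Cblb was so on control day 3 against day 2 (1.14), 1 of 11 against 13.1% of genes. Cbl was so on day 1 in A20 cKO against control (1.09), 1 of 10 against 15.5%. With either other scaling Inppl1, Cblb and Cbl were short of the rule, and Dok1 was lower past it in A20 cKO on day 1 (−1.30 with TMM scaling). The 6 other genes whose receptors use the common gamma chain, such as Clec4e and Oscar, had too few UMIs in all 13 comparisons.

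Among 13 other Fc and Fc-like receptor genes, 3 or 4 had enough UMIs. Fcrls, a gene related to the Fc receptors and also 1 of the microglia markers, had 1336 CPM in control naive and 1454, 1229 and 1078 CPM after 1, 2 and 3 days. The A20 cKO libraries had 512, 597, 116 and 113 CPM in the same order. All A20 cKO libraries were below all control libraries, and the log2 ratio on day 3, a comparison inside the linked set, was −3.25 (−3.43 to −3.08). Against A20 cKO naive it was −2.13 on day 2 and −2.18 on day 3, where 2.65% and 2% of genes were lower past the rule. Fcrl1 was lower than in A20 cKO naive on days 1, 2 and 3, by −1.51, −1.81 and −1.93, at levels of 20.2 CPM and less. Fcrl1 was lower in A20 cKO than control on days 1 and 2 too, across the sets, by −1.34 and −1.95, and within the linked libraries on day 3 by −1.76. Fcrls was lower in A20 cKO naive than in control day 3 (−1.07), within the linked libraries, and across the sets it was lower in A20 cKO than in control in naive animals (−1.38), on day 1 (−1.28) and on day 2 (−3.40). Fcgrt, the neonatal Fc receptor that recycles IgG, was lower in A20 cKO on day 1 (−1.04), across the sets. Trim21, a cytosolic antibody receptor, was higher on control day 3 than day 2 (1.75), also across, 1 of 4 against 13.1% of genes. Of this list, A20 cKO was lower than control past the rule in 1 of 4 in naive animals and 3 of 3 on day 1. On days 2 and 3 it was lower in 2 of 3 and 2 of 4. The shares of all genes in these comparisons were 2.22%, 3.25%, 4.66% and 2.4%.

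The genes whose levels over the 8 libraries were most like those of each member were found among 3329 genes, by the root mean square difference of centred log2 CPM. For Fcgr3 they were Zfp467 (0.08), Bmyc (0.11) and Tspan13 (0.12), each highest in control naive and lowest on A20 cKO day 3. For Fcgr4 they were Hmgn2 (0.21), Tpm4 (0.21) and Gpr65 (0.26), a looser likeness for the member that varied most, each lowest in control naive. For Fcgr1 they were Dbnl (0.04), Aig1 (0.07) and Ywhae (0.07), for Fcgr2b Tpd52 (0.09), Tmem167 (0.11) and Tnfaip8 (0.12), and for Fcer1g Bub3 (0.05), Rbx1 (0.06) and Sec61g (0.06). The spread of the members themselves over the libraries, as a standard deviation of log2 CPM, was 0.11 for Fcgr1, 0.16 for Fcer1g, 0.21 for Fcgr2b, 0.39 for Fcgr3 and 0.62 for Fcgr4. With 8 libraries that fall into 2 sets, such likeness is a description.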

How the data were processed

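Single YFP-positive cells from the lumbar cord, several animals pooled per library, were sorted, kept in serum-free medium with microglial survival factors and captured with a 10x Genomics 3′ kit, for which labels and methods name different versions. The deposited values are raw counts of UMIs for each gene in each barcode that had been called a cell, and the authors did not normalize them. Cell Ranger 2.1.1 and the build mm10 are given in the submitters' processing notes, and 27645 of 27998 identifiers matched GENCODE M21.

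Cells with at least 1000 UMIs, at least 500 genes and at most 10% mitochondrial UMIs were kept, 14626 of 14883 barcodes. Libraries held between 1648400 and 15817426 UMIs. No doublet caller was run, and the cell filter of the study was not used here. UMIs were summed per library and scaled as CPM. Levels have exact Poisson intervals, shares exact Clopper-Pearson intervals and ratios exact conditional intervals at 95%, all for counting error only. For shares and cell classes each cell was thinned without replacement to 2000 UMIs, and shallower cells were left out. A class was compared in libraries with at least 20 cells both in and outside it. Marker lists lacked Ighm, Igkc and Trbc2, which were not matched. Each group had 1 library, so no test was run.

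Named are the 5 members, every gene of the pathway lists past the call rule, and the 3 genes nearest to each member among those with a mean of at least 50 CPM, leaving out mitochondrial, ribosomal-protein, predicted and sex-linked genes. Syk, Lyn, Btk, Tyrobp, Inpp5d and examples of list members were named outside this rule. The members and lists were chosen with earlier results of these data known. Alternatives were TMM scaling (edgeR 4.0.16 in R 4.3.3), median-of-ratios scaling, other cell filters, other call limits and other class rules. Other computations used Python 3.11.15, numpy 2.4.6, scipy 1.17.1 and pandas 2.3.3, and were tested on simulated counts. Promoters were taken from RefSeq on GRCm38.p6, and protein sequences were not used here.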

Additional observations from a re-analysis of the deposited data

Results flagged for a closer look

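Fcer1g moved in opposite directions by day 3 in the 2 genotypes. The log2 ratio of control day 3 to control naive was −0.20 (−0.25 to −0.16), and that of A20 cKO day 3 to A20 cKO naive was 0.13 (0.10 to 0.17). The difference between the genotypes was not tested, since each group was 1 library. The control comparison lies across the sets of libraries and the A20 cKO comparison within the linked set, so set and genotype cannot be told apart here. Both signs were the same with TMM scaling (−0.22 and 0.19), with median-of-ratios scaling (−0.28 and 0.24) and in cells without core G2/M genes (−0.18 and 0.13). In interferon class cells they were −0.31 (−0.54 to −0.05) and 0.05 (−0.01 to 0.12), where the A20 cKO interval includes 0.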

How the results depend on the processing

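Each group had 1 library, so variation between animals is unknown and depth sets only the counting intervals. No paired analysis was possible because each group had 1 library. Of the 65 log2 ratios of members, all 65 moved by less than their counting interval without the cell filter, with a stricter filter, without barcodes shared between libraries and without cells holding genes of other types, 60 with the mean of cell CPM, 48 in cells without core G2/M genes, 36 with TMM scaling and 30 with median-of-ratios scaling. In interferon class cells 19 of 59 did, and 11 turned sign, 7 of them with an interval apart from 0 in all cells. With TMM and with median-of-ratios scaling 5 turned sign each, among them Fcgr2b on control day 3 against day 2, from 0.18 to −0.045 and −0.025. Of the 37 calls among pathway genes, 25 stayed with TMM and 29 with median-of-ratios scaling. These scalings moved the median gene by up to 0.30. Counts of members past the call rule changed as follows. With a log2 limit of 0.5, 2 were higher on control day 1 and on control day 3 against naive, 1 was higher and 1 lower on control day 3 against day 2, 1 was higher on A20 cKO days 1, 2 and 3 against naive and 1 lower on days 2 and 3, 1 was lower in A20 cKO naive and in A20 cKO day 3 against control day 3, and 1 was higher and 1 lower in A20 cKO day 2 against control day 2. In interferon class cells 0 were higher on control days 1, 2 and 3 against naive and in A20 cKO naive against control naive. In this class Fcgr4 had 1 UMI in control naive and 17 each on control days 1 and 2, short of the UMI minimum. With 172 UMIs on control day 3 and 133 in A20 cKO naive, it reached the minimum but was not past the rule. Without cells holding genes of other types, 0 were higher in A20 cKO naive against control naive and 1 on A20 cKO day 2 against naive, and the latter was also 1 with the mean of cell CPM. Leaving out cells with at least 2 genes of 1 such list left between 61.3% (A20 cKO day 2) and 86.5% (control day 1) of a library. With TMM and median-of-ratios scaling, 1 member, Fcgr3, was lower in A20 cKO day 2 against control day 2. Of 60 class ratios, 52 kept within their interval without thinning. Among those whose interval excluded 0, 1 changed sign, that of Fcgr2b in the interferon class on control day 3, to −0.037. Sign changes of the others were not counted. The causes were not tested. The alternatives of G2/M-free and interferon class cells, and the other scalings of pathway genes, were chosen after seeing the data.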
